A study of Mus musculus with 2 samples.

Results

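The Hox genes encode homeodomain transcription factors that lie in 4 clusters, A to D, and are numbered by paralog group from 1 to 13. The members described here are the protein-coding genes, present in both gene tables, whose mouse symbol is Hox followed by a cluster letter and a number. That rule took 39 of the 21474 protein-coding genes in the tables: 11 in cluster A, 10 in cluster B, 9 in cluster C and 9 in cluster D. The naming rule itself uses no measured value.

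Total RNA was sequenced from the lungs of 2 mouse pups of strain B6NCrl on the day of birth, postnatal day 0, with no allele or treatment named in the labels. Both lungs of 1 animal went into each library. The labels number the animals pup 1 (replicate 1) and pup 3 (replicate 2), both of pregnancy 1, and sex was not collected. The labels also give the pups 1 shared donor identifier, so that the independence of the replicates rests on the pup numbers. Depth was 42189536 expected counts for pup 1 and 37026165 for pup 3. There is 1 group, so the design holds no comparison between conditions, and levels are given for each pup or as the mean ± SD (n = 2).

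Within a cluster, genes are ordered along the chromosome as they are ordered along the body: low paralog numbers, at the 3′ end of the cluster, are active in the head and neck, and high numbers, at the 5′ end, in the tail, limbs and urogenital tract. The set of Hox genes that a mesenchyme keeps active is read as a positional code for the level of the body at which the tissue arose. The lung buds from the foregut in the neck and chest region, and the group 5 genes are known for their part in patterning lung mesenchyme and in branching of the airways. Hox proteins bind DNA together with TALE homeodomain partners such as Pbx and Meis, retinoic acid acts on Hox genes, and Polycomb complexes keep silent members silent.

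The tissue label was checked against marker lists. All 6 lung epithelial markers and all 8 lung mesenchymal markers stood at TPM 1 or more in both pups, where TPM, transcript abundance scaled by gene length and library size, is the deposited unit of level. Tcf21 reached 648 ± 32.6 TPM among the mesenchymal markers and Sftpc 73149 ± 5895 TPM among the epithelial ones. Markers of other tissues were present at lower sums: 5 of 6 cardiac muscle genes passed TPM 1 and the list summed to 605 ± 58.5 TPM, 4 of 6 skeletal muscle genes passed and summed to 46.9 ± 2.23 TPM, and 1 of 6 cartilage, 1 of 6 thymus and 3 of 6 liver genes passed. Of the blood progenitor markers 4 of 8 passed, and the list summed to 261 ± 11.6 TPM, led by Cd34 at 171 ± 7.33 TPM, while Elane, Mpo, Ms4a2 and Flt3 were below TPM 1. Of the nerve and glia markers 1 of 7 passed in both pups, and Stmn2 stood at 46.9 of a sum of 49.5 ± 3.64 TPM. Of the stratified epithelium markers 3 of 6 passed (10.5 ± 0.13 TPM), and of the kidney and body wall markers 1 of 7 (3.70 ± 0.57 TPM). Cartilage genes Matn1, Acan and Col2a1 were at 0 to 0.15 TPM in either pup. The cartilage gene that passed was Sox9, at 7.95 and 7.55 TPM. Whether lung cells themselves express Sox9, Cd34 or other genes of these lists was not tested. The part of these other tissues in the Hox levels was not tested. In whole lung, fewer cells of a type and less RNA per cell cannot be told apart.

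A minority of the Hox genes was detected. At TPM 1 or more in both pups stood 11 of the 39 members, or 28.2%, against 60.3% of all protein-coding genes in the tables. All 11 belonged to paralog groups 2 to 7 of clusters A and B, which hold 12 members. The other 27 members included none that passed. The median member stood at 0.06 TPM, against 4.05 TPM for the median protein-coding gene. Summed over all members the level was 102 TPM in pup 1 and 105 TPM in pup 3 (103 ± 1.98), and groups 2 to 7 of clusters A and B held 97.6% of that sum in pup 1 and 97.7% in pup 3. Hox genes carried 0.0131% of all gene counts in each library.

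The highest member was Hoxa5 (ENSMUSG00000038253, chromosome 6, 52201754 to 52204587, minus strand, mm10), which patterns the trachea, lung and diaphragm in the mouse. It stood at 35.4 TPM in pup 1 and 35.1 TPM in pup 3, from 2033 and 1715 expected counts, with both pups nearly at the same level. By mean TPM it ranked 3735 of 21474 protein-coding genes. Hoxb5 (ENSMUSG00000038700, chromosome 11, 96303336 to 96306121, plus strand), which acts alongside Hoxa5 in lung branching, stood at 14.8 and 15.3 TPM from 872 and 774 counts. Hoxa5 was thus 2.35 ± 0.07 times Hoxb5 on the TPM scale, and the pups' ranges for the 2 genes lay far apart. The third gene of the group, Hoxc5, gave 0.12 and 0.20 TPM from 2 and 7 counts.

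These values require reads of similar paralogs to be told apart, which was checked on the GENCODE M21 transcripts. The longest run of coding bases identical between Hoxa5 and Hoxb5 was 26, and between Hoxa5 and Hoxc5 it was 17. Among the other detected paralog pairs the longest run was 33 bases, between Hoxa3 and Hoxb3. The deposited effective length of Hoxa5 equals its length less 99 bases, as for fragments of 100 bases. No window of 100 bases was shared between detected paralogs. On the same strand, Hoxa2 and Hoxa3 shared 10.1% and 6.50% of their windows with the overlapping gene model Gm28308, which had 0 counts. Hoxd3 shared 57.8% of its windows with the overlapping models of Hoxd4 and Gm28230, so the low values of Hoxd3 and Hoxd4 cannot be told apart by sequence there.

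**Figure D1:**
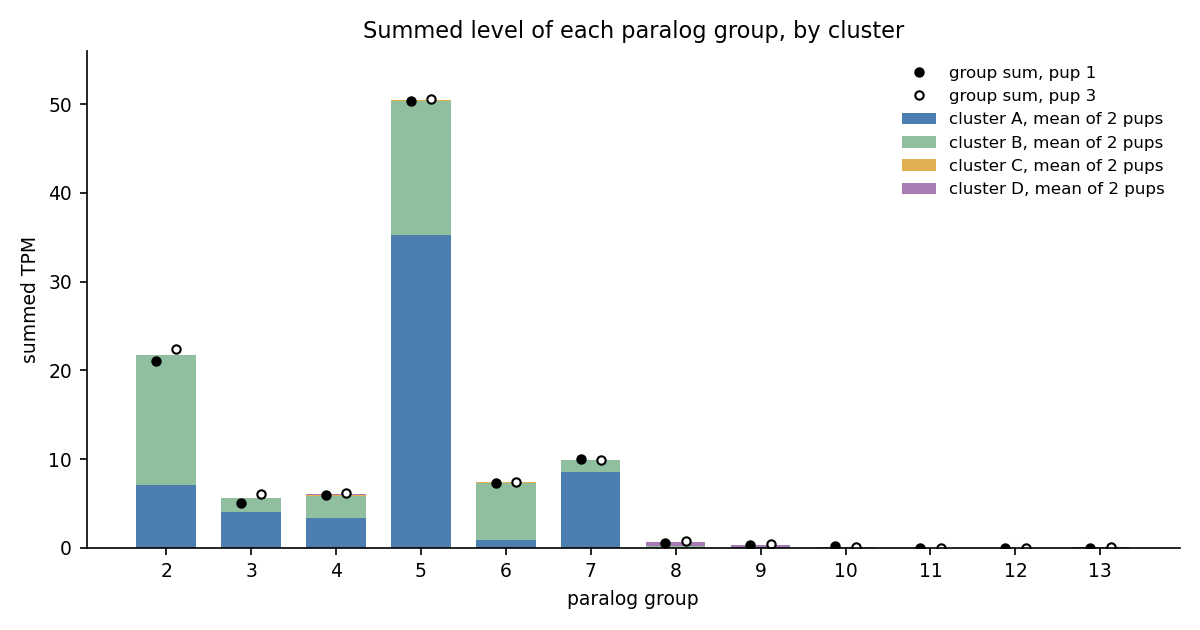
Summed TPM (vertical axis) of each Hox paralog group (horizontal axis, 2 to 13). Bars stack the mean of the 2 pups by cluster, and points give the group's sum in each pup. Group 5 stands at 50.4 and 50.6 TPM, above group 2 at 21.04 and 22.4 TPM, and groups 8 to 13 lie below 1 TPM each.

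Read by paralog group, group 5 stood highest, as the plot of summed levels by group shows. Its sum was 50.4 TPM in pup 1 and 50.6 TPM in pup 3, which was 49.0 ± 0.76% of all Hox TPM. Group 2 followed with 21.04 and 22.4 TPM (21.1 ± 0.54%), although its members are best known from the hindbrain and the branchial arches. Group 7 held 9.63 ± 0.27%, group 6 7.14 ± 0.08%, group 4 5.87 ± 0.07% and group 3 5.40 ± 0.62%. The pups' ranges of summed TPM did not overlap between group 5, group 2 and group 7. Groups 3 and 4 did overlap, at 5.05 to 6.10 TPM and 5.92 to 6.19 TPM.

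Both members of group 2 were detected. Hoxb2, which acts in hindbrain and facial nerve patterning, stood at 14.5 and 14.9 TPM (741 and 651 counts), and its range overlapped that of Hoxb5. Hoxa2, the selector gene of the second branchial arch, stood at 6.54 and 7.53 TPM (334 and 327 counts). Here the cluster B gene was the higher, at 2.10 ± 0.17 times Hoxa2. In groups 3, 4, 5 and 7 the cluster A gene was the higher of the pair.

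Group 3 genes act in the pharynx, thymus and neck. Hoxa3 stood at 3.77 and 4.22 TPM and Hoxb3 at 1.28 and 1.85 TPM, a ratio of 2.61 ± 0.47. In group 4, which patterns the neck vertebrae, Hoxa4 stood at 3.40 and 3.29 TPM. Hoxb4, also known from blood stem cells, stood at 2.27 and 2.66 TPM, and Hoxa4 was 1.37 ± 0.18 times as high. The ranges of Hoxa3, Hoxa4, Hoxb4 and Hoxb3 did not overlap in that order.

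Groups 6 and 7 act in the chest region of the body axis. Hoxa7 stood at 8.82 and 8.19 TPM (333 and 249.5 counts) and Hoxb7 at 1.17 and 1.68 TPM (45 and 55 counts). The ratio of this pair was 7.54 in pup 1 and 4.88 in pup 3, the widest of the 5 pairs with both genes detected. Hoxb6 stood at 6.48 and 6.45 TPM (260 and 220 counts). Its cluster A partner Hoxa6 stayed below TPM 1, at 0.84 and 0.94 TPM (21 and 20 counts). Ordered by mean TPM, the detected members ran Hoxa5, Hoxb5, Hoxb2, Hoxa7, Hoxa2, Hoxb6, Hoxa3, Hoxa4, Hoxb4, Hoxb3 and Hoxb7. Of the 10 neighbouring pairs in that order, Hoxb5 and Hoxb2 overlapped between pups, as did Hoxb3 and Hoxb7. Hoxa2 and Hoxb6 stood apart by only 1.09-fold, from 6.54 and 6.48 TPM as their nearest values.

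The 28 members below TPM 1 in both pups fell into those with a few counts and those with none. With counts were 16 members, from 0.005 to 0.89 mean TPM, among them Hoxa6, Hoxa9, Hoxa10, Hoxa13, Hoxb8, Hoxb9, Hoxc4, Hoxc5, Hoxc6, Hoxd1, Hoxd3, Hoxd4, Hoxd8, Hoxd9 and Hoxd10. The members with 0 counts in both libraries were Hoxa11, Hoxb1, Hoxb13, Hoxc8, Hoxc9, Hoxc10, Hoxc11, Hoxc12, Hoxc13, Hoxd11, Hoxd12 and Hoxd13. For these 12 a count of 0 allows up to 3 counts, or 0.0382 to 0.117 TPM depending on the gene's length and the library. This limit covers counting error only.

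Posterior genes, groups 9 to 13, pattern the limbs, the lower trunk and the urogenital tract. None of the 16 was detected, and together they held 0.548 ± 0.02% of Hox TPM. The highest was Hoxd9 at 0.29 and 0.34 TPM, from 19 counts in each pup. Groups 11 and 12 had no count in either library. The 15 central members, groups 4 to 8, held 72.3 ± 0.94% and the 8 anterior members, groups 1 to 3, 27.2 ± 0.92%.

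**Figure D2:**
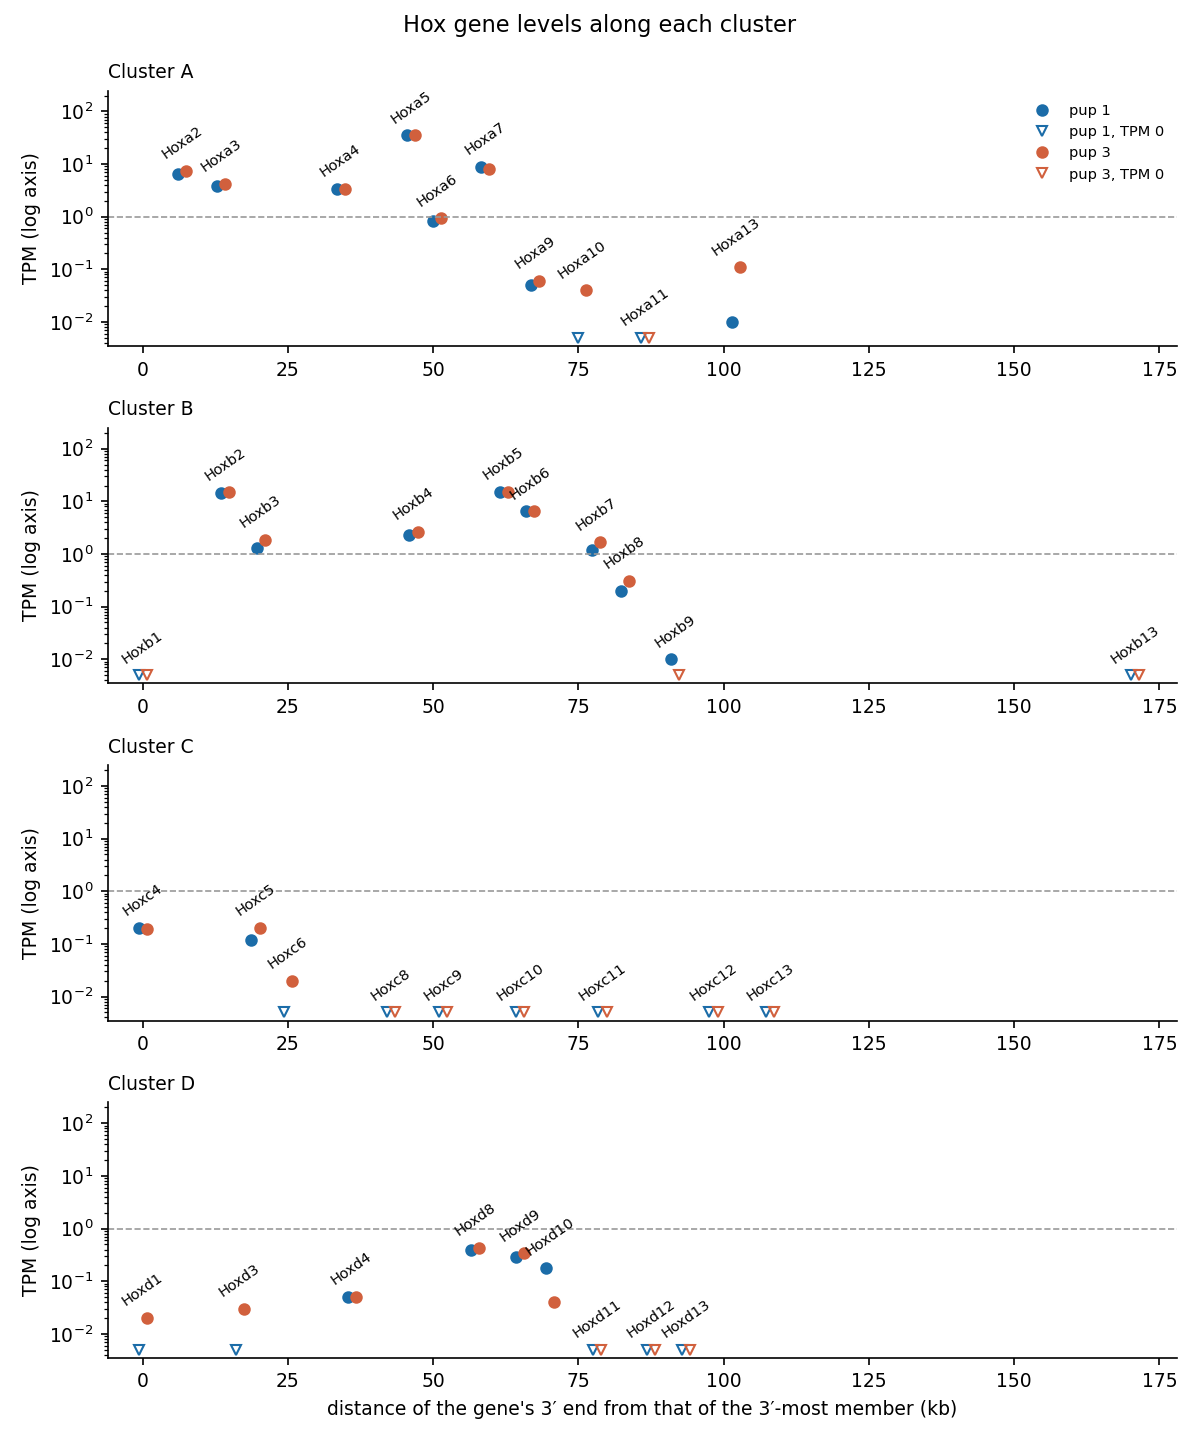
TPM on a log axis for 38 of the 39 members, placed by the distance in kb of the gene's 3′ end from that of the 3′-most member, with 1 panel for each cluster. Filled circles are pup 1 (blue) and pup 3 (orange), open triangles at the bottom are values of 0, and the dashed line marks TPM 1. In cluster A the members above the line lie between 6.83 and 58.9 kb of 102.1 kb and in cluster B between 14.2 and 78.1 kb of 170.8 kb, towards the 3′ side, and in clusters C and D no member reaches it.

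Clusters A and B stood far above clusters C and D in summed level. Cluster A, on chromosome 6 from 52155590 to 52260880 (105.3 kb), summed to 59.8 and 60.1 TPM with 5 of 11 members detected. Cluster B, on chromosome 11 from 96194316 to 96368256 (173.9 kb), summed to 40.7 and 43.1 TPM with 6 of 10 detected. Cluster A was 1.47 times cluster B in pup 1 and 1.39 times in pup 3, or −0.52 ± 0.05 as the log2 ratio of B over A. With every member weighted alike the clusters were closer: the mean of log2(TPM + 1) differed by −0.054, and the median member of cluster B, 1.495 TPM, was above that of cluster A, 0.89 TPM. Cluster C (chromosome 15, 102921103 to 103036852) summed to 0.32 and 0.41 TPM and cluster D (chromosome 2, 74668310 to 74765142) to 0.91 TPM in both pups. No value in any of their 18 members exceeded 0.43 TPM, that of Hoxd8 in pup 3. The 5 members of clusters C and D in groups 2 to 7 were below TPM 1 as well. They lie in groups 3 to 6, because clusters C and D hold no gene of group 2 or 7.

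Along clusters A and B, as the plot of levels by position shows, levels did not change evenly with position. In cluster B they fell step by step from Hoxb5 towards the 5′ end. Hoxb5 was 2.28 and 2.37 times Hoxb6 per unit of length, Hoxb6 was 5.54 and 3.84 times Hoxb7, and Hoxb7 was 5.98 and 5.48 times Hoxb8. For Hoxb8 the effective length was 2536 bases in pup 1 and 1663 in pup 3, from 16 and 14 counts. Hoxb9, the next gene, had 1 count in pup 1 and 0 in pup 3. At the 3′ end Hoxb1, which had 0 counts, was at least 208-fold lower than Hoxb2 in pup 1 and at least 182-fold lower in pup 3, against a floor of 3 counts in each library.

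In cluster A, 2 steep steps stood out. Between Hoxa7 and Hoxa9, a blood progenitor and trunk gene whose 3′ end lies 8.61 kb further on, the level per unit of length fell 169-fold in pup 1 (95% counting interval 57.5 to 825) and 129-fold in pup 3 (43.6 to 629.9), with 3 counts for Hoxa9 in each. The size of this step depends on the estimate used. By the deposited posterior mean TPM it was smaller, from 8.95 to 0.26 in pup 1 and from 8.24 to 0.30 in pup 3. Hoxa10, Hoxa11 and Hoxa13 beyond Hoxa9 had 0 to 3 counts. The other step was local. Hoxa5 was 42.2 times its neighbour Hoxa6 in pup 1 (27.5 to 68.3) and 37.4 times in pup 3 (24.1 to 61.4), although their 3′ ends are 4.53 kb apart. The next gene, Hoxa7, was high again, so that Hoxa6 stood at 0.10 and 0.11 times Hoxa7. On the other side Hoxa4 stood at 0.10 and 0.09 times Hoxa5.

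The bases before the start sites of Hoxa5 and Hoxa6 are shown because these adjacent genes differ so much in level. Both are from RefSeq, build GRCm38.p6, minus strand, 200 bases that end 50 bases before the RefSeq start: chr6:52204638-52204837 for Hoxa5 and chr6:52208723-52208922 for Hoxa6. Capitals mark CG dinucleotides, the sites at which vertebrate DNA is methylated.
Hoxa5: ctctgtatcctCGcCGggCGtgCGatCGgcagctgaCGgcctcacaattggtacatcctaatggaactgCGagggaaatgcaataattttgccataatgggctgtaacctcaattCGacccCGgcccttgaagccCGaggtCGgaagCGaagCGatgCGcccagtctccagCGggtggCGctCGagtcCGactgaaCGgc
Hoxa6: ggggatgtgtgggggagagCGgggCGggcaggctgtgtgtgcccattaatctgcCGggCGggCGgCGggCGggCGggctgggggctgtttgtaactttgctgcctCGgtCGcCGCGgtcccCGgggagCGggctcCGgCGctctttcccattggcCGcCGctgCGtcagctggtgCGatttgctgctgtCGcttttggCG
The shown stretch holds 19 CG dinucleotides for Hoxa5 and 22 for Hoxa6, so the gene at 35.3 TPM and the gene at 0.89 TPM are alike in this count. RefSeq promoters of 300 bases, 250 before and 50 after the start, were matched for 22 of the 39 members (24 promoters). Their median was 14.5 CG dinucleotides, against 7 over all 32851 promoters in the table. The 5 promoters of detected members had a median of 14 and the 19 of members below TPM 1 a median of 15. Searched on both strands with no match overlapping that of another motif, AGGTCA, a core bound by retinoic acid receptors and other nuclear receptors, was in 7 of 24 Hox promoters (29.2%, against 16.3% of all). TGATNNAT, a form bound by Hox and Pbx together, was in 4 (16.7%, against 8.85%), the homeodomain core TAATTA in 2 (8.33%, against 5.29%), and TATAAA in 4 (16.7%, against 13.6%). AGGTCA was in 2 of the 5 promoters of detected members, those of Hoxa5 and Hoxb4, and in 5 of the 19 of members below TPM 1. TGATNNAT was in 1 of the 5, that of Hoxa2, and in 3 of the 19. TAATTA and TATAAA were in 0 of the 5, and in 2 and 4 of the 19.

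RNAs that are not members also lie inside the clusters. In cluster A the highest was Hotairm1, a noncoding RNA at the 3′ end of the cluster, at 57.1 and 52.5 TPM, above Hoxa5. It had 426 and 344 counts on an effective length of 231 and 239 bases. The other 2 of the 3 highest there, Gm27868 and Gm27477, have effective lengths of 3 and 44 bases, so that their TPM rests on few positions. Among the longer ones, Hoxaas3, whose exons lie under those of Hoxa3 and Hoxa7 on the other strand, stood at 12.9 and 13.6 TPM. Of 20 non-members in cluster A, 7 were at TPM 1 or more in both pups. In cluster B 2 of 9 were: Hoxb5os at 5.99 and 5.64 TPM and Hoxb3os at 3.88 and 4.77 TPM, followed by Gm11539 at 0.49 and 0.61 TPM. None of the 7 in cluster C or the 9 in cluster D passed. Hotair, in cluster C, and Hoxa11os, in cluster A, had 0 counts. The highest in cluster D were Hoxd3os1 at 0.15 and 0.48 TPM, Haglr at 0.00 and 0.12 TPM and Gm28230 at 0.02 and 0.00 TPM. The Hox cluster miRNA genes, Mir10a, Mir10b, Mir196a-1, Mir196a-2, Mir196b and Mir615, have effective lengths of 0 to 11 bases and were not measurable in these tables.

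Whether counting used strand is not given in the sources used here, but some counts show reads divided across strands. Hoxa4 has 1 annotated transcript and no exon overlap on its own strand, yet its counts were fractional, 164.18 and 135.25. In each pup they added to a whole number with those of Gm29430 on the other strand, 9.82 and 9.75. The counts of Hoxb2, Hoxb3 and Hoxb3os together did the same. Reads from a member and from an RNA on the other strand were thus not fully separated there. Exons of other genes on the opposite strand cover 52.9% of the exonic bases of Hoxb3, 27.3% of Hoxb2, 25.4% of Hoxa3, 20.4% of Hoxa7 and 16% of Hoxa4, which makes these 5 levels uncertain. They cover 3.59% of Hoxb5 and none of Hoxa5, Hoxa2, Hoxb4, Hoxb6 or Hoxb7. Without those 5 genes, group 5 held 71.1% of the remaining Hox TPM and the log2 ratio of cluster B over cluster A was −0.78, a setting added after the values were seen.

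The genes on either side of the clusters are not Hox genes. Cluster A lies between Skap2, at 70.3 and 78.6 TPM, and Evx1, which had 0 counts. Cluster D lies between Mtx2, at 71.8 and 75.8 TPM, and Evx2, which had 0 counts and lies 8.8 kb from Hoxd13. In both, the flank at the 3′ end was the higher. Cluster C lies between Smug1, at 8.95 and 8.12 TPM, and Calcoco1, at 87.8 and 81.6 TPM, both above every member of that cluster. Cluster B lies between Skap1, at 0.64 and 0.89 TPM, and Ttll6, at 0.87 and 1.17 TPM.

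Transcript shares were examined for detected members with a mean of TPM 5 or more and several annotated transcripts. Deposited isoform percentages put 96.1 ± 0.40% of Hoxb2 in Hoxb2-201, 95.6 ± 1.46% of Hoxb5 in Hoxb5-201 and 96.7 ± 0.08% of Hoxb6 in Hoxb6-201, each a protein-coding transcript. Intron-retaining transcripts took the other 3.95 ± 0.40% of Hoxb2 and 4.43 ± 1.46% of Hoxb5. Hoxa7 was spread over 5 transcripts. The protein-coding Hoxa7-203 held 41.7 and 44.9%, and a transcript whose annotated fate is nonsense-mediated decay 33.9 and 30.6%. By expected counts, which are not divided by length, the order was the reverse. The decay transcript had 186.5 and 132.96 counts and Hoxa7-203 64.52 and 54.86. Hoxa5 and Hoxa2 have 1 annotated transcript each.

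**Figure D3:**
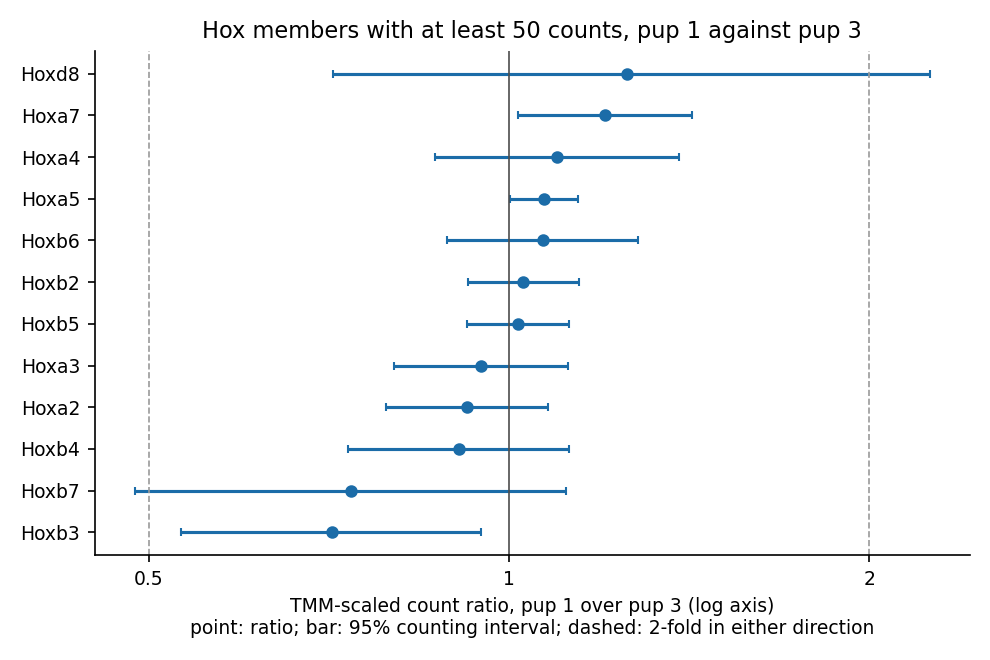
Ratio of scaled counts in pup 1 over pup 3 (log axis) for 12 of the 13 Hox members with at least 50 counts over both libraries. Points are ratios, bars are 95% counting intervals and dashed lines mark 2-fold in either direction. Every plotted point lies between 0.711 for Hoxb3 and 1.26 for Hoxd8, inside the dashed lines.

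The pups were compared with each other to show how far 1 animal stands from another. This sets 1 library against 1 library and has no replicate check or p-value. To count as different, a gene needed 50 or more counts in the libraries together, a 2-fold or larger ratio of TMM-scaled counts, and an exact 95% counting interval that left out 1. By that rule 0 of the 13 Hox members with enough counts differed, against 1.40% of all 15790 genes with enough counts (221 genes, with 0.659% higher in pup 1 and 0.741% higher in pup 3). The other 26 members had too few counts for the rule. The median log2 ratio of pup 1 over pup 3 was 0.039 for the 13 members and 0.0054 for all genes with enough counts.

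Hoxa5 had a ratio of 1.07 (1.003 to 1.14) and Hoxb5 of 1.02 (0.922 to 1.12), and with Hoxb2, at 1.03 (0.923 to 1.14), these highest members had the narrowest intervals. Hoxb3 was lower in pup 1, at 0.711 (0.532 to 0.947), and Hoxa7 higher, at 1.20 (1.02 to 1.42). The intervals of Hoxa5, Hoxb3 and Hoxa7 left out 1, and none of these ratios reached 2-fold. Of the 13 ratios, 8 were above 1 and 5 below.

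**Figure D4:**
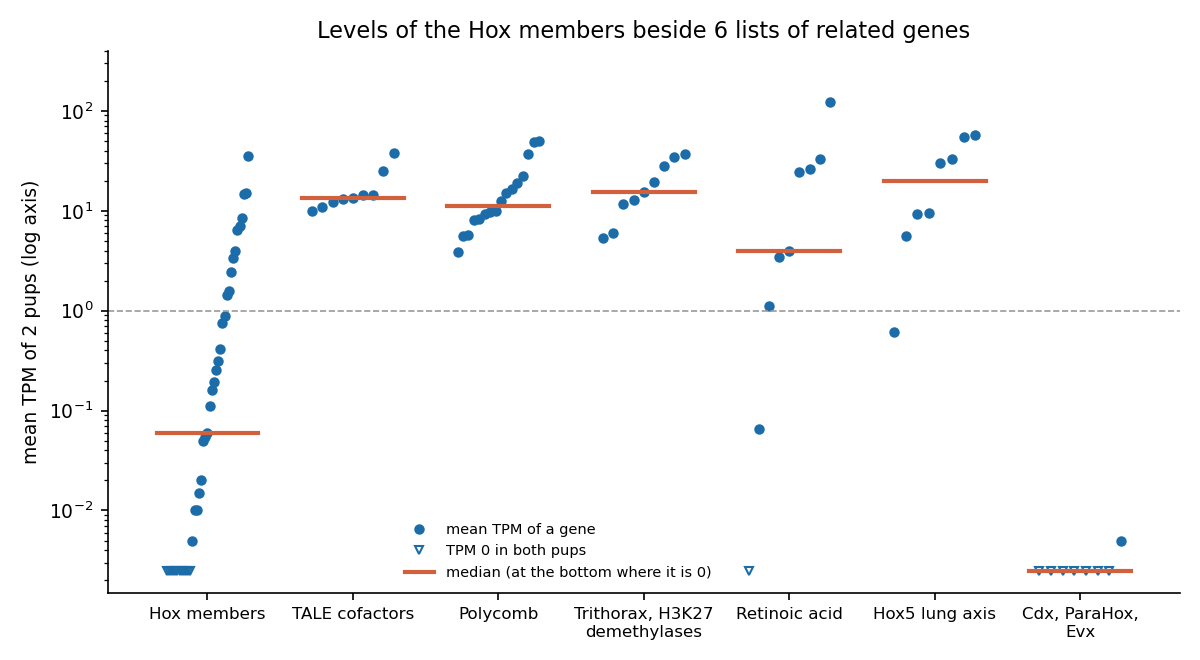
Mean TPM of the 2 pups on a log axis for each Hox member and each gene of 6 lists. Points are genes, open triangles are genes at 0 in both pups, orange lines are medians and the dashed line marks TPM 1. All TALE, Polycomb and trithorax genes lie above the dashed line, and all 8 genes of the Cdx, ParaHox and Evx list lie below it.

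Genes that work with the Hox genes are given by list, as in the plot of the 6 lists. Over all protein-coding genes, 60.3% passed TPM 1 in both pups. All 9 TALE genes, the cofactors of Hox proteins, passed TPM 1 in both pups, with a median of 13.4 TPM. The highest was Meis1 at 35.1 and 40.1 TPM, and among the Pbx genes Pbx4 stood at 15.0 and 14.1 TPM. All 16 Polycomb genes passed as well, with a median of 11.2 TPM, led by Cbx6 at 50.4 ± 5.24, Phc2 at 48.4 ± 1.499 and Rnf2, a catalytic subunit of Polycomb repressive complex 1, at 37.0 ± 0.10 TPM. The 9 trithorax genes and H3K27 demethylases, which oppose Polycomb, all passed, led by Men1 at 36.9 ± 1.13, Ash2l at 34.3 ± 4.43 and the demethylase Kdm6b at 28.4 ± 3.52 TPM. None of these 34 genes met the rule for a difference between the pups, against 1.40% of all genes with enough counts.

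Of the 9 genes of the retinoic acid axis 6 passed, beside 60.3% of all protein-coding genes. Aldh1a1, which makes retinoic acid, stood at 110.3 and 138 TPM, the receptor gene Rarg at 31.3 and 35.3 TPM, and Aldh1a2, the main embryonic source enzyme, at 24.5 and 28.1 TPM. The degrading enzymes Cyp26a1 (0.13 and 0.00 TPM) and Cyp26c1 (0 in both) were below TPM 1. Of 8 genes linked to group 5 function in lung, 7 passed: the lung transcription factor Nkx2-1 at 60.5 and 55.5 TPM, the mesenchymal ligand Wnt2 at 54.6 and 55.5 TPM and Foxa2 at 33.1 and 32.7 TPM were the highest. Wnt2b, another mesenchymal Wnt ligand, was at 0.78 and 0.45 TPM. By contrast none of the 8 Cdx, ParaHox and Evx genes, relatives of the Hox genes, passed. Cdx2 had 1 count in pup 1, and Cdx1, Cdx4, Pdx1, Gsx1, Gsx2, Evx1 and Evx2 had 0 counts in both libraries.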

How the data were processed

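Per the labels, Ambion mirVana extraction gave RNA over 200 nt, each library started from 10 ng, and a SMARTer low-input manual is named. The deposited gene tables hold expected counts, estimated counts, often fractional, per the file headers, with the deposited TPM and FPKM scaled by effective length. The deposited transcript tables give isoform percent, and the deposited posterior mean TPM served as an alternative. Assembly mm10 and annotation M4 are named in the deposited text notes; the aligner, the counter and any use of strand were not given in the sources used here. Names and coordinates came from GENCODE M21 on the same assembly, which matched 42462 of 43346 gene identifiers. Spike-ins, phiX and features named only by a number (26345) stayed out.

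Detection meant TPM 1 or more in both pups. For the comparison of pups, expected counts were rounded, scaled by TMM (edgeR 4.0.16, R 4.3.3; pup 1 over pup 3 was 1.11), and log2 ratios carry a prior count of 0.5. Ratios along a cluster divide counts by effective length, with exact conditional binomial 95% intervals. Without molecular identifiers, PCR copies are not independent, so these intervals and the floors reflect counting error alone.

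The naming rule for members uses no measured value, but this gene family, the members, the lists and the tests were chosen with earlier results of these data known. Every Hox member at TPM 1 or more in either pup was named with both values. The rule also took the 3 highest genes and those below TPM 1 in both pups of each related list, the 3 highest other genes within each cluster, and the genes on either side. Members below TPM 1, Hoxaas3, Hotair, Hoxa11os and the miRNA genes are given values in addition, chosen after their values were seen. Some genes that the rule takes are not reported here. Tissue markers are given by list with a few examples. Alternatives covered scaling, thresholds, pseudocounts, posterior mean TPM, counts and each replicate left out.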

Additional observations from a re-analysis of the deposited data

How the results depend on the processing

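The levels rest on 2 animals, and counts limit the low members. Leaving out 1 pup gave a Hox sum of 101.7 to 104.5 TPM, 11 members detected, a log2 ratio of cluster B over A of −0.55 to −0.48, 71.6 to 72.9% in groups 4 to 8 and 48.4 to 49.5% in group 5. With expected counts, groups 4 to 8 held 71.1% and group 5 52.1%. Group 5 held 47.7% by posterior mean TPM and 50.4% among detected members alone. Of the 11 named genes, 8 had a posterior mean TPM within 1 SD of the main value. The ratio of cluster B over A shrank to −0.054 as a difference of mean log2(TPM + 1) and to −0.078 with a pseudocount of 0.1. With 10 expected counts in both pups as the rule, 17 members were detected. Leaving out the 5 members under opposite-strand exons, chosen after the data were seen, gave 6 detected members, −0.78 for B over A, 88.2% for groups 4 to 8 and 71.1% for group 5.

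Under DESeq2, total-count and spike-in scaling and both other count minimums, 0 Hox members differed between the pups, and at 1.5-fold 1 did. The setting with the deposited TPM + 1 was a different rule, a 2-fold ratio of TPM + 1 without the counting interval. By that rule 0 Hox members differed too. Among all genes 221 differed by the main rule and 85 by the TPM + 1 rule. The main rule gave 590 with at least 10 counts, 701 with no count filter and 799 at 1.5-fold. The genes higher in pup 1 and in pup 3 numbered 104 and 117, against 161 and 82 with spike-in scaling and 31 and 54 with the deposited TPM + 1. The median log2 ratio of the Hox members was 0.18 with spike-in scaling, which moved the median of all genes to 0.15, −0.041 with TPM + 1 and −0.0017 with total counts. The spike-in scaling rests on only 317 counts in pup 1 and 316 in pup 3, so it carries counting error of its own. No paired analysis was possible because there is 1 group.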

Other observations

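At low counts, the TPM of a member can move with the transcript to which the few reads were assigned. Hoxb8 had 16 counts (pup 1) and 14 counts (pup 3), yet 0.20 and 0.31 TPM, on effective lengths of 2536 bases in pup 1 and 1663 in pup 3. All of its counts in pup 1 went to Hoxb8-201, whereas Hoxb8-203 held 58.4% of its abundance in pup 3. Hoxa13 had 1 and 3 counts and 0.01 and 0.11 TPM, on effective lengths of 2296 and 1029 bases. Hoxc5 had an effective length of 516 bases in pup 1 and 1273 in pup 3, from 2 and 7 counts. Hoxd8 had effective lengths of 2535 and 1957 bases, from 32 and 23 counts. For these 3 genes and Hoxd8 the pups' TPM values rest on different transcript models.

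Among the genes of the retinoic acid axis, 2 met the rule for a difference between the pups, in opposite directions, and were named after their values were seen. Cyp26b1, which degrades retinoic acid, had 294 and 740 counts (1.98 and 5.86 TPM), a log2 ratio of −1.48. Aldh1a3, which makes it, had 131 and 58 counts (1.47 and 0.75 TPM), a log2 ratio of 1.02. The rule called 1.40% of all genes with enough counts. Among the detected Hox members no gene differed by this rule in the same 2 libraries.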
